A study of Homo sapiens with 19 samples.

Results

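Depletion of HMGN5 by siRNA was compared with a control siRNA in MDA-MB-231, an established human line of mesenchymal-like triple-negative breast cancer cells. The comparison took the libraries titled for HMGN5 siRNA or for control siRNA without a viral vector, which are 6 of the 19 samples of the series. They are 4 libraries of control siRNA (NC, replicates 1 to 4) and 2 of HMGN5 siRNA (siHMGN5, replicates 1 and 2), and all 6 received siRNA at 30 nM in a lipid transfection. Libraries of STAT3 siRNA (siSTAT3, n = 2) from the same experiment entered the fit to estimate the spread. They also entered the filter on low counts and the scaling, so that 74346 transcripts were tested, beside 70105 without them. Some of their own values are set beside the results below. An H3K27ac profile of each condition is not analysed here. The labels do not say that the replicates were separate cultures, so p-values measure the spread between these libraries, which may be technical. Neither do they say how many siRNAs were used against HMGN5 or how long the cells were kept after transfection.

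HMGN5 belongs to the high mobility group N family, small nuclear proteins that bind nucleosomes without reading a DNA sequence and loosen the packing of chromatin, in part by competing with the linker histone H1. HMGN1 and HMGN2 are close relatives with the same nucleosome-binding domain, and HMGN5 differs from them by a long acidic tail. STAT3, the other gene named in the title of the series, is a transcription factor that cytokine receptors of the gp130 family activate through the JAK kinases. The comparison shows which transcripts differ after HMGN5 siRNA. It does not show which of them respond to the loss of HMGN5 or which HMGN5 touches directly.

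Each of the 6 libraries held between 19114033 and 19509422 estimated reads, so that 3 reads corresponded to 0.154 to 0.157 CPM (reads scaled to the size of the library). Values below are CPM of single transcripts, with TMM factors applied, and the same estimated reads were tested. A transcript is not the whole gene, since transcripts of 1 gene can trade reads in the estimate. Genes are named through Ensembl transcript IDs written from general knowledge, not through an annotation table. The transcripts that mark this line were all present: VIM ranged from 1979 to 2197 CPM, EGFR from 450 to 690 and CAV1 from 76.8 to 144 over the 6 libraries. Markers of other cells were at 0 reads for CDH1 (epithelial cadherin), ESR1 (estrogen receptor) and PTPRC (leukocytes), while EPCAM, an epithelial marker, stood between 1.57 and 2.42 CPM, and the ERBB2 transcript between 0 and 19.4 CPM.

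The HMGN5 transcript itself (ENST00000358130.6, gene at chrX:81113699-81201913 in GRCh38.p14) fell almost to the limit of detection. It stood at 7.47, 8.29, 11.9 and 11.3 CPM in NC replicates 1 to 4 and at 0.201 and 0.36 CPM in the siHMGN5 libraries. Both siHMGN5 libraries lay far below every NC library. The fold change was 34-fold lower, a log2 fold change of -5.09 ± 0.47 (SE) with an adjusted p of 0.00531 (edgeR quasi-likelihood test with Benjamini-Hochberg adjustment over 74346 transcripts, used throughout). With limma-voom the adjusted p was 0.0613. In bulk RNA, fewer cells that hold a transcript and less of it per cell cannot be told apart, here and below.

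With all 4 NC libraries, 2521 of 74346 transcripts tested had an adjusted p under 0.05, which is 3.39% of them, 701 higher (0.943%) and 1820 lower (2.45%) after HMGN5 siRNA. The share of higher calls was 27.8%, against 44% with limma-voom and 43.2% when the control was the mean of the means of the NC pairs. The NC libraries form pairs that differ from each other, replicates 1 and 2 against replicates 3 and 4, and the labels name no batch. Against replicates 1 and 2 alone 4163 transcripts passed (5.6%, with 1.88% higher and 3.72% lower), and against replicates 3 and 4 alone 7656 passed (10.3%, with 4.41% higher and 5.89% lower). A call is said below to hold where a transcript passed with all 4 NC libraries and, in the same direction, against each pair. This was so for 2201 transcripts (2.96%), 539 higher (0.725%) and 1662 lower (2.24%), of which 292 were at least 2-fold higher and 1084 at least 2-fold lower. Higher calls were thus 24.5% of those that held. With the fit and its scaling restricted to transcripts of at least 10 CPM, 3214 of 15753 held, 1414 higher and 1800 lower, so that 44% were higher. With all transcripts in the fit, 1667 of 15862 at that level held, 384 higher and 1283 lower. The number held and the balance of directions thus depended on this choice.

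The other 320 calls did not hold: 309 of them were not called against NC replicates 1 and 2, 57 were not called against replicates 3 and 4, and 46 passed against neither pair. In the opposite case, 603 transcripts passed the same way against each pair but not with all 4 NC libraries, whose spread includes the step between the pairs. In all, 3.77% of transcripts passed the same way against each pair. A further 116 transcripts (0.156%) passed in opposite directions against the pairs. The siHMGN5 libraries lay outside the range of the 4 NC libraries for 30.6% of the transcripts tested, 16.2% above and 14.3% below, so lack of overlap alone is common here. Leaving out 1 library of siHMGN5 left 1 and cut the calls to 630 (without replicate 1) or 551 (without replicate 2). Without NC replicate 3 or 4 the calls numbered 1570 or 1537.

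Named genes came from 12 lists of known transcripts, of which 144 transcripts were tested and 39 held, 14 higher and 25 lower. Among transcripts of at least 10 CPM, 37 of 109 on the lists held, beside 1667 of 15862 overall (10.5%, with 2.42% higher and 8.09% lower). The lists hold well-known genes of this line and are no random draw, and nothing is read from that difference. The counts of each list below have the same limit. The median log2 fold change was -0.23 for the listed transcripts of at least 10 CPM and -0.13 for all transcripts of that level. When TMM was computed on transcripts of that level alone, the overall median moved to -0.005, so fold changes of abundant transcripts shift upward by about that step under this scaling, and no call on a named transcript changed direction.

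**Figure D1:**
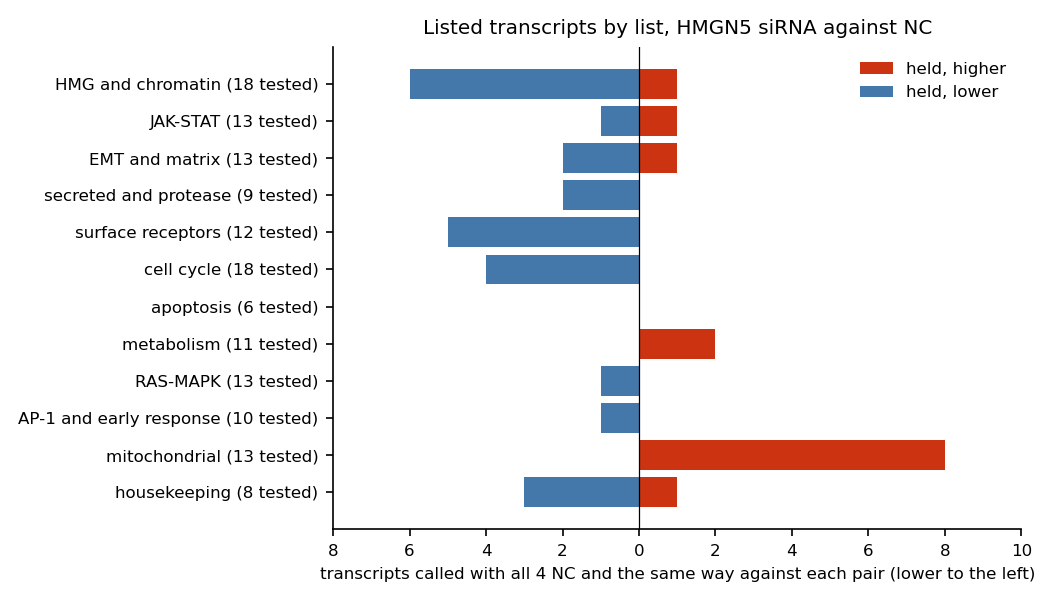
Number of listed transcripts per gene list that passed with all 4 NC libraries and the same way against each NC pair, higher after HMGN5 siRNA to the right (red) and lower to the left (blue), with the number tested beside each list name. The mitochondrial list has 8 higher and none lower, and the surface receptor list 5 lower and none higher.

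Of 18 tested transcripts of the high mobility group and chromatin list, 6 fell, HMGN5 itself among them, 1 rose and 11 did not pass, with a median log2 fold change of -0.62. Most held calls over all transcripts were lower too, and nothing is read from the direction of this list. The transcript of HMGN1 (ENST00000380749.9) had no read in either siHMGN5 library, beside 42.8, 43.9, 67.7 and 56.3 CPM in the NC libraries. Taking 3 reads per library as the floor, it was at least 345-fold lower (adjusted p = 0.00311). This is 1 transcript of the gene, and whether its reads moved to another transcript was not tested. With limma-voom its adjusted p was 0.113. The transcript of HMGN2 stood at 150, 153, 143 and 136 CPM in the NC libraries and at 69.5 and 75.8 CPM with HMGN5 siRNA. That is 2-fold lower (SE 0.09 on the log2 scale, adjusted p = 0.00458), with no overlap between the groups. The files contain no siRNA sequence, so whether the siRNA also matches HMGN1 or HMGN2 was not tested.

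HDAC1, a histone deacetylase, had the largest held fall among the listed chromatin enzymes. It stood at 125, 122, 159 and 151 CPM in the NC libraries and at 31.1 and 32.1 CPM in siHMGN5. The siHMGN5 values were 4.4-fold lower, a log2 fold change of -2.14 ± 0.15 (adjusted p = 0.00246), at -1.96 against the first NC pair and -2.29 against the second.

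ARID1A, the DNA-binding subunit of a SWI/SNF remodelling complex, stood at 50.2, 45.4, 55 and 61.7 CPM in NC and at 28.3 and 26.4 CPM in siHMGN5. It fell by 0.96 on the log2 scale (adjusted p = 0.0192). DNMT3A, a DNA methyltransferase that sets new methylation, went the other way, from 11.4, 10.7, 8.8 and 8.65 CPM to 24.8 and 25.3 CPM. Its log2 fold change was 1.34 ± 0.16 (adjusted p = 0.011), and its groups did not overlap. The calls on ARID1A and DNMT3A rested on both siHMGN5 libraries: without replicate 1 their adjusted p was 0.115 and 0.0848, and without replicate 2 it was 0.14 and 0.09.

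Other chromatin transcripts did not pass. The acetyltransferases EP300 (178 to 212 CPM in NC, 152 and 161 in siHMGN5; adjusted p = 0.108) and CREBBP (31.9 to 48.6 CPM in NC, 28.7 and 25.9 in siHMGN5; adjusted p = 0.272) were below every NC library without a call. SUZ12, a subunit of the Polycomb complex that methylates histone H3, was likewise below, at 63.1 and 60.1 CPM beside 81.2 to 114 (adjusted p = 0.117). The deacetylase HDAC3 overlapped, at 17.3 and 26.6 CPM beside 17.4 to 23.7.

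Among surface receptors and adhesion molecules, 5 of 12 tested transcripts fell and held, none rose and 7 did not pass, with a median log2 fold change of -0.59. Lower calls were the more common ones over all transcripts as well. The ERBB2 transcript, of a receptor tyrosine kinase, lay above every NC library, at 12.7 and 19.4 CPM beside 0 to 5.16 CPM, and did not pass (adjusted p = 0.512). NT5E encodes CD73, the cell-surface enzyme that makes adenosine from AMP. Its transcript (gene at chr6:85450083-85495784) stood at 1190, 1244, 1235 and 1214 CPM in NC and at 447 and 436 CPM in siHMGN5. The NC libraries were close to one another, and the siHMGN5 libraries were 2.76-fold lower (log2 fold change -1.47 ± 0.06, adjusted p = 0.0015). The change was -1.46 against the first NC pair and -1.47 against the second.

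AXL, a receptor tyrosine kinase that marks mesenchymal breast cancer cells, had the other leading change of this list (gene at chr19:41219223-41261766). It stood at 574, 611, 633 and 638 CPM in NC and at 185 and 179 CPM in siHMGN5. This is 3.38-fold lower, a log2 fold change of -1.76 ± 0.07 (adjusted p = 0.0015), with no overlap. EGFR, the receptor of epidermal growth factor, moved less, from 690, 685, 655 and 664 CPM to 464 and 450 CPM (log2 fold change -0.56 ± 0.06, adjusted p = 0.0077). MET, the receptor of hepatocyte growth factor, overlapped, with 142 to 208 CPM in NC and 181 and 178 in siHMGN5 (adjusted p = 0.934).

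Integrins link the cell to its matrix. ITGB1, the shared beta subunit, stood at 761, 777, 892 and 786 CPM in NC and at 432 and 418 CPM in siHMGN5, a log2 fold change of -0.92 ± 0.08 (adjusted p = 0.00517). ITGAV, an alpha subunit that pairs with it, stood at 181, 165, 180 and 162 CPM in NC and at 115 and 107 CPM in siHMGN5 (log2 fold change -0.63 ± 0.08, adjusted p = 0.0134). Another ITGB1 transcript, ENST00000396033.6, overlapped NC, at 2.72 and 4.89 CPM beside 2.11 to 15.8, and was not called (adjusted p = 0.399). For ITGAV and the ITGB1 transcript above, the groups did not overlap. ITGA2, a subunit of a collagen receptor, was also below every NC library, at 239 and 231 CPM beside 278 to 301, but passed only against each pair and not with all 4 (adjusted p = 0.0749). NT5E and AXL kept their calls without either siHMGN5 library, with adjusted p up to 0.0204. Without replicate 1 the adjusted p was 0.0685 for EGFR and 0.0818 for ITGAV, and without replicate 2 it was 0.0806 for EGFR, 0.115 for ITGAV and 0.0511 for ITGB1.

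**Figure D2:**
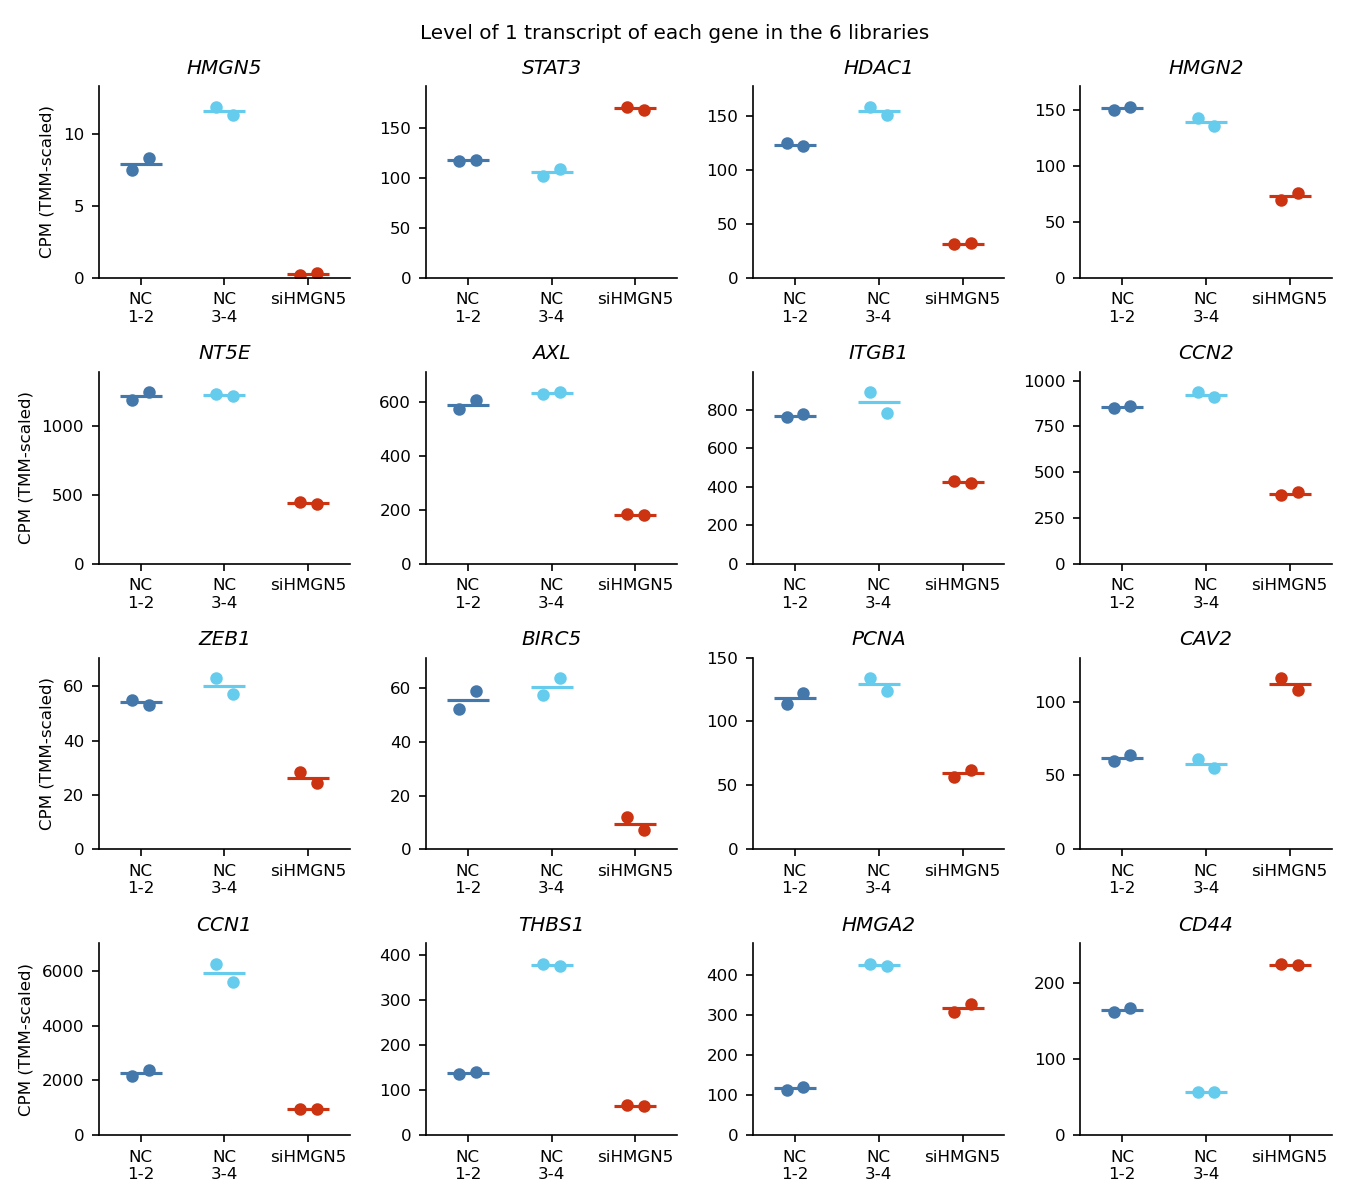
Level of 1 transcript of each of 16 genes in CPM (TMM-scaled, linear axes from 0) in NC replicates 1 and 2 (dark blue), NC replicates 3 and 4 (light blue) and siHMGN5 (red). Points are libraries and lines the mean of each pair. In the first 3 rows the siHMGN5 points lie on 1 side of both NC pairs. In the last row (CCN1, THBS1, HMGA2, CD44) the NC pairs stand apart.

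Genes of the epithelial-mesenchymal transition and the matrix were mixed: of 13 tested transcripts 2 fell and 1 rose and held, and 10 did not pass. CCN2, formerly CTGF, is a secreted matrix protein and a standard target of the transcription factors YAP and TEAD. It stood at 851, 860, 937 and 910 CPM in NC and at 374 and 389 CPM in siHMGN5. The siHMGN5 libraries were 2.33-fold lower without overlap (log2 fold change -1.22 ± 0.07, adjusted p = 0.00176), and the call stayed without any 1 library, with adjusted p up to 0.0229. ZEB1, a repressor of epithelial genes, fell from 55.1, 53.3, 63.1 and 57.3 CPM to 28.4 and 24.4 CPM (log2 fold change -1.11 ± 0.11, adjusted p = 0.0065, or 0.0558 without siHMGN5 replicate 2). CAV2, a caveolin, rose from 60.1, 63.7, 61.2 and 54.8 CPM to 116 and 108 CPM (log2 fold change 0.90 ± 0.09, adjusted p = 0.00589, or 0.059 without siHMGN5 replicate 1).

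CAV1, its partner in caveolae, was below every NC library instead, at 76.8 and 87.4 CPM beside 99, 110, 144 and 138 CPM, and did not pass (adjusted p = 0.182). VIM, the intermediate filament of mesenchymal cells, stood at 2101, 2197, 2121 and 2132 CPM in NC and at 1979 and 2017 CPM in siHMGN5. That is a log2 difference of -0.10 ± 0.05 (adjusted p = 0.442), and 0.03 when scaling was set on transcripts of at least 10 CPM alone.

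CCN2 is shown with the sequence just before its gene start because its fall kept its call without any 1 library and because this stretch holds a motif that can be read in letters. The motif is GGAATG, or CATTCC on the other strand, the core that TEAD factors bind, and it was chosen after the values of CCN2 were seen. Single RefSeq promoter entries (GRCh38.p14) were found for 14 of the genes that fell and held, for 3 that rose and held and for 51 of the other listed genes. The motif was present within 250 bases before the gene start in 1 of the 14 (CCN2), in 1 of the 3 (ENO1) and in 2 of the 51, beside 11.9% of 35116 promoters in the table. The stretches of CCN2 (chr6:131951373-131951622, minus strand) and ENO1 (chr1:8878687-8878936, minus strand) are given 5′ to 3′ up to the base before the gene start, with the motif in capitals.
CCN2: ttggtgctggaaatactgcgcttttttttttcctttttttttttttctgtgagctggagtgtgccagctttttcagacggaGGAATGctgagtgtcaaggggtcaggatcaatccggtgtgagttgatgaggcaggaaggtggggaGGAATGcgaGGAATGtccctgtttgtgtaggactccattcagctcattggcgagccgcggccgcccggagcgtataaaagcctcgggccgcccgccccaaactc
ENO1: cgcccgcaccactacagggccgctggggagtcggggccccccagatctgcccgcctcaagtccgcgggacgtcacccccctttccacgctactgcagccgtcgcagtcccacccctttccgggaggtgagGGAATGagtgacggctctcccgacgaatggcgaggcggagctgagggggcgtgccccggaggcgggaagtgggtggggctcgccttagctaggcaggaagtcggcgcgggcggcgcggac
CCN2 holds 3 matches, the first of them beginning 169 bases before the gene start, and ENO1 holds 1 match beginning 120 bases before it. The genes with a match thus include 1 that fell and held and 1 that rose and held. The 2 among the 51 were STAT2 and THBS1, both below every NC library and not called with all 4 (adjusted p = 0.246 and 0.12). A STAT-type motif, TTCNNNGAA, and an AP-1-type motif, TGANTCA, were each found in 6.57% of all promoters and in 0 of the 14 that fell. Among the 3 that rose, TTCNNNGAA was found in 0 and TGANTCA in 1 (ARRDC4), and among the 51 other genes they were found in 5 and 4. A match is a description of these letters and shows no binding, and no match speaks only of this window.

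Some of the largest differences in the matrix list depended on which NC pair served as the control. CCN1, formerly CYR61 and another YAP target, stood at 2141, 2365, 6260 and 5593 CPM in NC replicates 1 to 4 and at 951 and 959 CPM in siHMGN5. Both siHMGN5 libraries were below all 4, by -1.24 on the log2 scale against the first pair (adjusted p = 0.00183) and by -2.63 against the second (adjusted p = 0.000256). With all 4 NC libraries the estimate was -2.10 ± 0.52 and did not pass (adjusted p = 0.0948). THBS1, the matrix protein thrombospondin 1, had the same layout, with 136, 140, 381 and 376 CPM in NC and 66.9 and 63.6 CPM in siHMGN5. Its log2 difference was -1.08 against the first pair (adjusted p = 0.00128) and -2.54 against the second (adjusted p = 0.000226), and with all 4 the adjusted p was 0.12.

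CD44, a hyaluronan receptor, was above every NC library, at 226 and 224 CPM beside 163, 167, 56.9 and 56.6 CPM. The log2 difference was 0.45 against the first pair (adjusted p = 0.00499) and 1.98 against the second (adjusted p = 0.000226), with an adjusted p of 0.376 against all 4. HMGA2, a high mobility group protein of another family, changed sign: it stood at 113, 120, 427 and 422 CPM in NC and at 308 and 327 CPM in siHMGN5. This was 1.44 higher on the log2 scale against the first pair (adjusted p = 0.000839) and -0.42 against the second (adjusted p = 0.00819). CDK6, a kinase of the G1 phase, passed as higher only against the first pair (log2 difference 0.86, adjusted p = 0.00246), with 122, 121, 232 and 221 CPM in NC and 225 and 218 CPM in siHMGN5. For HMGA2 and CDK6 the siHMGN5 values lay inside the NC range, so no direction can be given.

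**Figure D3:**
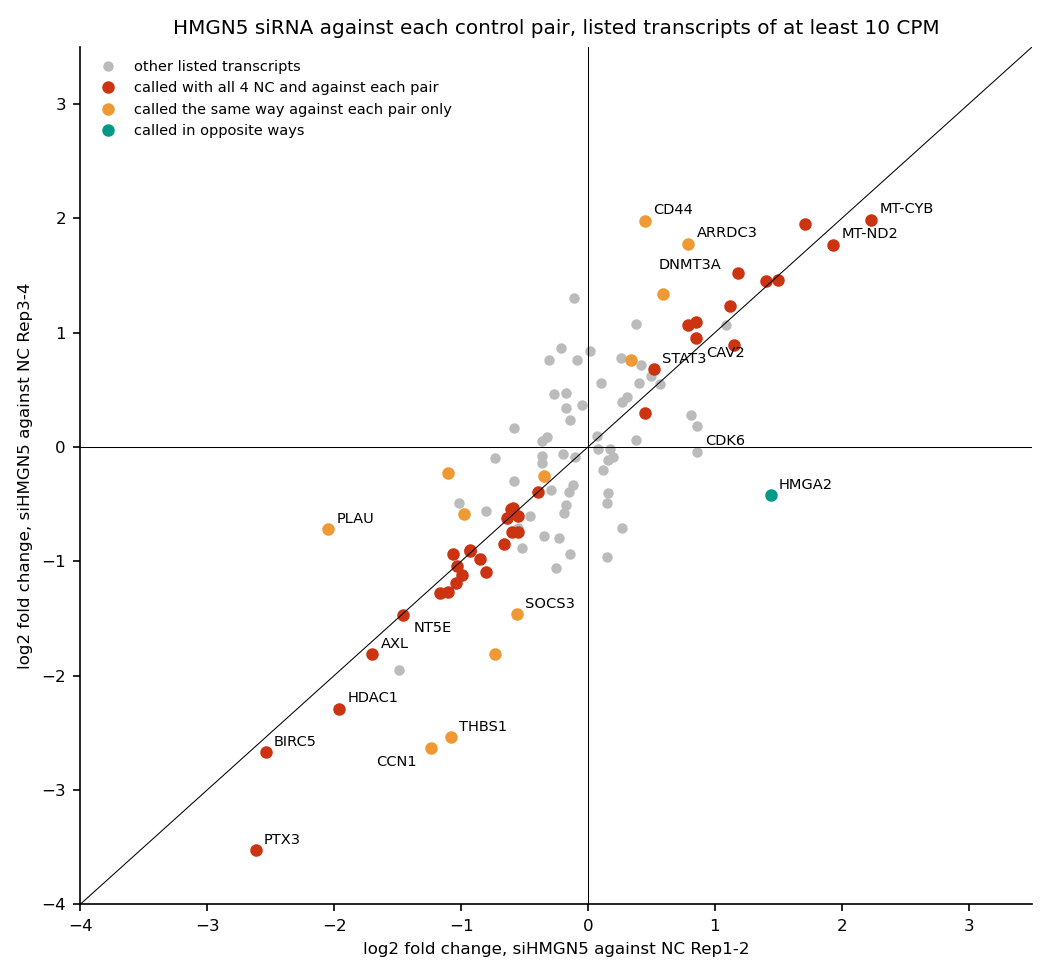
Log2 fold change of siHMGN5 against NC replicates 1 and 2 (horizontal) and against NC replicates 3 and 4 (vertical) for listed transcripts of at least 10 CPM with a read in siHMGN5; the diagonal marks equal change. The axes share the siHMGN5 libraries. Most held transcripts (red) lie near the diagonal, with PTX3 further below it (-2.62 and -3.53). Holding also needs a call with all 4 NC libraries, whose spread includes the step between the pairs, so this nearness partly follows from the definition. CCN1 and THBS1 (orange) lie below the diagonal and PLAU and CD44 above it, and HMGA2 (green) has opposite signs.

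Secreted factors and proteases included 2 held falls and no held rise among 9 tested transcripts. PTX3, a secreted pattern-recognition protein, stood at 13.1, 15.8, 28.5 and 25.5 CPM in NC and at 2.52 and 2.16 CPM in siHMGN5. The fall of 3.14 on the log2 scale passed (SE 0.40, adjusted p = 0.0124), but not without siHMGN5 replicate 1 or 2 (adjusted p = 0.0921 or 0.102).

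PLAU, the protease urokinase, was below every NC library, at 66.4 and 66.2 CPM beside 281, 267, 107 and 111 CPM. Here the first pair was the high one: the log2 difference was -2.05 against it (adjusted p = 0.000835), -0.72 against the second (adjusted p = 0.00203) and not called against all 4 (adjusted p = 0.172). The urokinase receptor PLAUR stood at 30.9 and 40.5 CPM beside 49.7 to 63.1 in NC and did not pass (adjusted p = 0.0681).

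In the JAK-STAT list, 13 transcripts were tested, 1 rose, 1 fell and 11 did not pass with all 4 NC libraries. The STAT3 transcript (ENST00000264657.9) stood at 117, 118, 102 and 109 CPM in NC and at 171 and 168 CPM in siHMGN5. It was 1.51-fold higher, a log2 fold change of 0.60 ± 0.09 (adjusted p = 0.0202), above every NC library and called against each pair. Without siHMGN5 replicate 1 or 2 the adjusted p was 0.156 or 0.14, and without NC replicate 4 it was 0.0524. STAT6, which acts downstream of interleukin 4, stood at 80.6, 86.6, 82.9 and 84.6 CPM in NC and at 62.4 and 65.1 CPM in siHMGN5. This small fall of 0.39 on the log2 scale passed (adjusted p = 0.0427), but not without any 1 of the 6 libraries, where the adjusted p ran from 0.0641 to 0.293.

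SOCS3, a feedback inhibitor that STAT3 induces, was below every NC library, at 31.8 and 28.4 CPM beside 44.7, 43.9, 81.8 and 83.8 CPM. It passed against each pair (adjusted p = 0.0162 and 0.000766) and not against all 4 (adjusted p = 0.162). LIF, a cytokine that signals through gp130, was above every NC library, at 199 and 194 CPM beside 151, 159, 112 and 120 CPM. It passed in the same pattern (adjusted p = 0.0275 and 0.00167, and 0.14 against all 4). IL6ST, which encodes gp130, overlapped NC, with 60.3, 62.5, 28.4 and 17.7 CPM beside 56.9 and 56.7 CPM in siHMGN5.

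Of 18 tested cell cycle transcripts, 4 fell and held, none rose and 14 did not pass. Over all transcripts of at least 10 CPM, 8.09% held as lower and 2.42% as higher, and nothing is read from the direction of this list. BIRC5, or survivin, a subunit of the complex that guides chromosome segregation and an inhibitor of apoptosis, stood at 52.2, 59, 57.4 and 63.9 CPM in NC and at 11.9 and 7.15 CPM in siHMGN5. It was 6.09-fold lower (log2 fold change -2.61 ± 0.23, adjusted p = 0.0048) with no overlap. PCNA, the sliding clamp of DNA replication, fell from 114, 122, 134 and 124 CPM to 56.5 and 62.4 CPM (log2 fold change -1.06 ± 0.09, adjusted p = 0.00484). Both calls stayed without any 1 library.

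TOP2A, the topoisomerase of dividing cells, stood at 703, 670, 790 and 726 CPM in NC and at 478 and 428 CPM in siHMGN5 (log2 fold change -0.67 ± 0.09, adjusted p = 0.0154). CCNB1, the mitotic cyclin, stood at 25.1, 30.3, 25.3 and 29.1 CPM in NC and at 14.3 and 14.7 CPM in siHMGN5 (log2 fold change -0.92 ± 0.15, adjusted p = 0.0288). Groups did not overlap for either. The adjusted p was 0.0685 and 0.195 without siHMGN5 replicate 1, and 0.112 and 0.173 without replicate 2, and for CCNB1 it was 0.0597, 0.0527 and 0.0667 without NC replicates 2, 3 and 4. The mitotic kinase PLK1 overlapped NC, at 74.6 and 88.7 CPM beside 82.8 to 99.6 (adjusted p = 0.647). CCND1, the G1 cyclin, also overlapped, with 397, 411, 628 and 632 CPM in NC and 448 and 452 CPM in siHMGN5.

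None of 6 tested apoptosis transcripts passed with all 4 NC libraries. BCL2L1, which encodes the survival protein BCL-XL, was below every NC library, at 123 and 99.4 CPM beside 228, 210, 168 and 167 CPM. It passed against each pair (adjusted p = 0.00974 and 0.0274) and not with all 4 (adjusted p = 0.061). MCL1, another survival protein of the same family, overlapped, with 248 to 274 CPM in NC and 267 and 270 CPM in siHMGN5 (log2 difference 0.03 ± 0.07).

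Metabolic genes held 2 rises and no fall among 11 tested transcripts. ARRDC4, an alpha-arrestin, stood at 4.68, 4.85, 1.69 and 2.15 CPM in NC and at 17 and 16.9 CPM in siHMGN5. The siHMGN5 libraries lay above every NC library, by 5.06-fold (adjusted p = 0.0408, log2 fold change 2.34 ± 0.43). ENO1, the glycolytic enzyme enolase 1, stood at 1381, 1357, 1485 and 1555 CPM in NC and at 1845 and 1899 CPM in siHMGN5, a small rise of 1.3-fold (SE 0.07 on the log2 scale) that passed narrowly (adjusted p = 0.0491, or 0.0535 with RLE size factors). Both lost the call when any 1 library was left out, with adjusted p from 0.0537 to 0.185 for ARRDC4 and from 0.0522 to 0.299 for ENO1.

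Other metabolic transcripts passed the same way against each pair but not with all 4. ARRDC3, a relative of ARRDC4, was higher at 34.2 and 30.4 CPM beside 17.4, 20, 8.7 and 10.1 CPM in NC (adjusted p = 0.135 with all 4). HK2, the hexokinase that starts glycolysis, was higher at 138 and 131 CPM beside 84.7, 93.6, 49 and 57.1 CPM (adjusted p = 0.134). TXNIP, the third member of this arrestin group here, was lower at 58.5 and 56.2 CPM beside 122, 123, 65.4 and 68.9 CPM (adjusted p = 0.31). In each of these 3 the siHMGN5 libraries lay outside the NC range, and the NC pairs also stood apart from each other.

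Of 13 tested transcripts of the RAS and MAP kinase list, 1 fell and held. NRAS, a RAS GTPase, stood at 210, 213, 248 and 235 CPM in NC and at 138 and 131 CPM in siHMGN5 (log2 fold change -0.75 ± 0.09, adjusted p = 0.0117). Without siHMGN5 replicate 1 or 2 the adjusted p was 0.0803 or 0.0969. HRAS, its relative, rose with all 4 NC libraries but did not hold: it stood at 12.8, 9.81, 11.2 and 11.7 CPM in NC and at 20.1 and 27.9 CPM in siHMGN5. The adjusted p was 0.0302 with all 4, 0.0531 against the first pair and 0.0379 against the second, and it was above 0.05 when any 1 library was left out (0.0503 to 0.222).

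Of 10 AP-1 and early response transcripts, 1 fell and held. FOSL2, a FOS-family subunit of AP-1, stood at 181, 155, 154 and 165 CPM in NC and at 106 and 114 CPM in siHMGN5 (log2 fold change -0.57 ± 0.10, adjusted p = 0.0335). Its adjusted p ran from 0.0508 to 0.238 when any 1 library was left out. FOSL1 stood at 48.3 and 60.6 CPM beside 75 to 86.5 in NC (adjusted p = 0.0724), and JUND at 62.8 and 72.3 CPM beside 41.7 to 52.2 (adjusted p = 0.0841). Neither overlapped NC and neither passed.

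Transcripts encoded in the mitochondrial genome rose: 8 of 13 were higher and held, 1 was called without holding and 4 did not pass. Over all transcripts of at least 10 CPM, 2.42% held as higher. The median log2 fold change of the 13 mitochondrial transcripts was 0.97. These genes encode core subunits of the respiratory chain and of ATP synthase, are transcribed as long precursors from the mitochondrial genome and are then cut apart. The 13 transcripts took 6.16%, 7.29%, 5.75% and 5.82% of the estimated reads in the NC libraries and 11% and 12.8% in the siHMGN5 libraries. The means were 6.25% ± 0.712 (SD, n = 4) and 11.9% ± 1.24 (SD, n = 2). The groups did not overlap, which gives a p of 0.133 in a two-sided exact permutation test, the smallest that 2 against 4 libraries allow. The share in siSTAT3, beside the same NC libraries, was 14.1% and 14.5%. With STAT3 siRNA the log2 fold change was 1.96 for MT-CYB, 1.99 for MT-ND2 and 1.86 for MT-ND3. It was 0.89 for MT-CO1 and 1.26 for MT-CO2. A rise of mitochondrial transcripts was thus not particular to HMGN5 siRNA in this experiment. Transcripts under 300 bases outside the mitochondrial IDs took 0.819% to 0.84% in NC and 0.796% and 0.803% in siHMGN5.

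The rise was uneven along the genome. MT-CYB, a subunit of complex III, stood at 1890, 2298, 2394 and 2564 CPM in NC and at 9111 and 10569 CPM in siHMGN5, a rise of 4.3-fold (log2 fold change 2.11 ± 0.13, adjusted p = 0.00192). MT-ND2, a subunit of complex I, stood at 3556, 4573, 4439 and 4625 CPM in NC and at 13890 and 17112 CPM in siHMGN5 (log2 fold change 1.85 ± 0.13, adjusted p = 0.00258). MT-ND3 stood at 974, 1246, 958 and 930 CPM in NC and at 3248 and 4032 CPM in siHMGN5 (log2 fold change 1.83 ± 0.14, adjusted p = 0.00334). These 3 were well above the NC range and kept their calls without any 1 library.

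The ATP synthase subunits MT-ATP8 and MT-ATP6, whose genes overlap so that they can share reads, rose by 1.48 ± 0.14 and 1.43 ± 0.11 on the log2 scale (adjusted p = 0.00528 and 0.00294). Of the other complex I subunits, MT-ND1 rose by 1.17 (adjusted p = 0.00966), and the overlapping pair MT-ND4L and MT-ND4 rose by 0.97 and 0.92 (adjusted p = 0.0137 and 0.0203). MT-CO1, of complex IV, stood at 14599, 17038, 13082 and 13065 CPM in NC and at 11263 and 13433 CPM in siHMGN5, a log2 difference of -0.23 ± 0.13 (adjusted p = 0.476). MT-CO2 likewise overlapped, with 6112, 7262, 4965 and 5306 CPM in NC and 5650 and 6489 CPM in siHMGN5 (log2 difference 0.04 ± 0.16). MT-CO3 passed with all 4 (log2 fold change 0.56, adjusted p = 0.0371) but not against the first pair (adjusted p = 0.0547), nor without NC replicate 1, 3 or 4 (adjusted p = 0.0571, 0.0796 and 0.0893) or siHMGN5 replicate 1 or 2 (0.0958 and 0.259).

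MT-ND5 and MT-ND6 were not called (adjusted p = 0.0706 and 0.256). MT-ND4 lost its call without NC replicate 1, 3 or 4 (adjusted p = 0.0525, 0.0521 and 0.0525) or siHMGN5 replicate 1 or 2 (0.083 and 0.152). Without siHMGN5 replicate 2 the adjusted p was 0.106 for MT-ND4L and 0.0694 for MT-ND1, and without replicate 1 it was 0.055 for MT-ND4L. When the 13 transcripts were left out of the fit, all 33 calls on other named transcripts remained. The part of RNA quality and of the yield of mitochondrial RNA in these values was not tested.

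**Figure D4:**
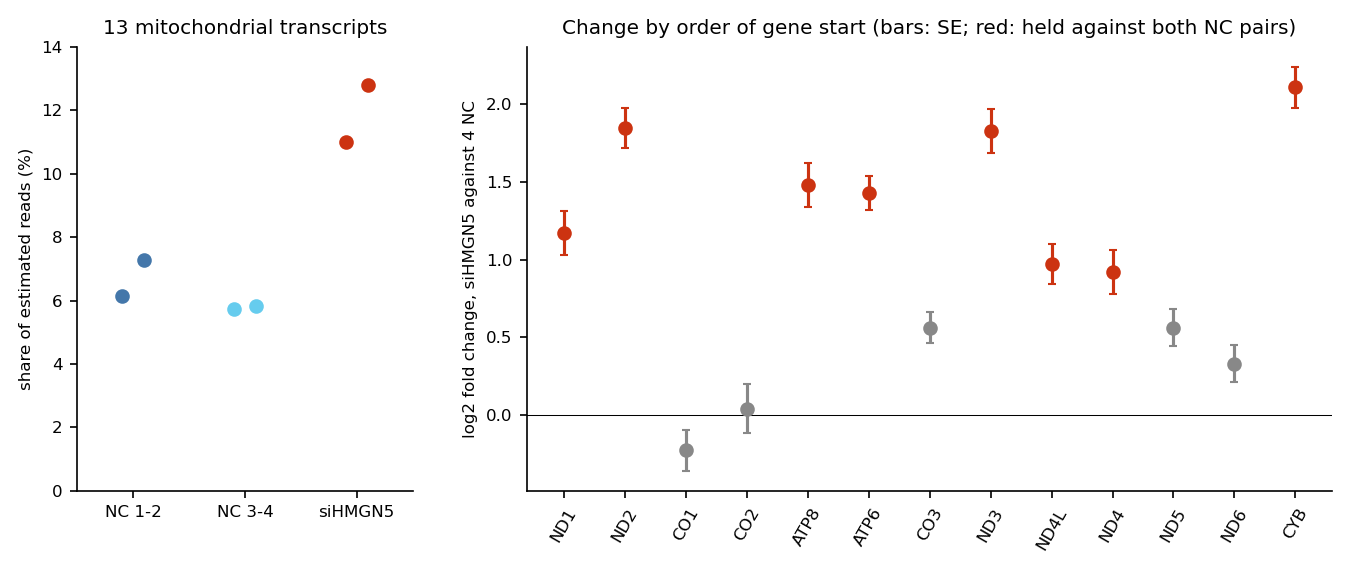
Left, share of estimated reads (%) taken by the 13 mitochondrial transcripts in each library of the NC pairs and of siHMGN5. Right, log2 fold change of each transcript against the 4 NC libraries with its standard error, in order of gene start. The siHMGN5 shares of 11% and 12.8% lie above the NC shares of 5.75% to 7.29%, and MT-CO1 and MT-CO2 stay near 0 between MT-ND2 and MT-ATP8, which rose.

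Transcripts often used as references changed too: among 8 tested, of 5 genes, 3 fell, 1 rose and 4 did not pass. At 10 CPM or more, 4 of 5 held, beside 10.5% of all transcripts of that level. These 5 come from ACTB, TUBA1B and EEF1A1 alone, and the held calls on EEF1A1 went in opposite directions. Those that did not pass include low-level transcripts of GAPDH, ACTB and B2M, with NC means of 3.76, 4.55 and 0 CPM. They do not show that these genes were stable. TUBA1B, an alpha-tubulin, stood at 1617, 1720, 1605 and 1659 CPM in NC and at 850 and 897 CPM in siHMGN5 (log2 fold change -0.92 ± 0.06, adjusted p = 0.00242). ACTB, cytoplasmic actin, stood at 2522, 2673, 2923 and 3024 CPM in NC and at 1768 and 1788 CPM in siHMGN5 (log2 fold change -0.65 ± 0.09, adjusted p = 0.0161). Both stayed lower under the other scalings, at -0.87 and -0.59 with library size only and at -0.79 and -0.52 with scaling on transcripts of at least 10 CPM. ACTB did not pass without siHMGN5 replicate 1 or 2 (adjusted p = 0.116 or 0.107).

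The elongation factor EEF1A1 shows how transcripts of 1 gene can part. Its most abundant listed transcript ENST00000309268.10 stood at 1499, 1535, 1590 and 1536 CPM in NC and at 1070 and 999 CPM in siHMGN5. It fell (log2 fold change -0.57 ± 0.06, adjusted p = 0.00918), and did not pass without siHMGN5 replicate 1 or 2. Nearly as abundant, ENST00000331523.6 stood at 1078, 1258, 1336 and 1711 CPM in NC and at 1071 and 972 CPM in siHMGN5. This transcript was not called (log2 fold change -0.40 ± 0.23, adjusted p = 0.466). The minor transcript ENST00000316292.13 rose from 9.2, 8.29, 11.2 and 9.81 CPM to 18 and 20.8 CPM (log2 fold change 1.01 ± 0.16, adjusted p = 0.0263). That call was lost without NC replicate 1, 2 or 4 (adjusted p = 0.0606, 0.052 and 0.0628) or siHMGN5 replicate 1 or 2 (0.11 and 0.187). Both EEF1A1 and the actin and tubulin genes have near-identical copies in the genome that can share reads, so their levels are less certain than those of single-copy genes.

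The largest held changes outside the lists are given by transcript ID, because the files do not pair IDs with genes. Among 2052 held transcripts that averaged 2 CPM or more and did not overlap, 83 were at 0 reads in both siHMGN5 libraries and 14 at 0 in all 4 NC libraries. ENST00000352035.6, of 4339 bases, stood at 98.7, 60.5, 81.5 and 173 CPM in NC and at 0 in siHMGN5, which is at least 677-fold lower against a floor of 3 reads per library (adjusted p = 0.005, or 0.262 with limma-voom). ENST00000394351.8, of 4479 bases, was at 0 in NC and at 27.1 and 13.4 CPM in siHMGN5, at least 130-fold higher (adjusted p = 0.0142, with 0.0683 by limma-voom and 0.0613 or 0.0581 without siHMGN5 replicate 1 or 2). Such all-or-none changes can also arise where reads pass between transcripts of 1 gene, and this was not tested.

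The STAT3 siRNA libraries share the NC libraries with this comparison, so their changes are set side by side and the difference was not tested here. On the log2 scale, NT5E changed by -1.47 with HMGN5 siRNA and by -3.46 with STAT3 siRNA. CCN2 was 2.33-fold and 4.01-fold lower, in the same order. AXL changed by -1.76 and -0.22, and HDAC1 by -2.14 and -0.22, the second value of each not called (adjusted p = 0.151 and 0.467). CAV2 changed by 0.90 and -1.65, and the HMGN5 transcript by -5.09 and -2.86. Other transcripts changed alike: PCNA by -1.06 and -1.12, TUBA1B by -0.92 and -0.95, ARID1A by -0.96 and -0.86, and ARRDC4 by 2.34 and 2.93. All these members were picked after their values were seen. They do not measure how far the changes with HMGN5 siRNA and STAT3 siRNA are shared.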

How the data were processed

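Poly(A) RNA of MDA-MB-231 was sequenced. Each deposited table lists 175775 Ensembl transcripts with length, effective length (both in bases), TPM and, per the file headers, a number of reads that is an estimated count. Salmon 1.4.0 is named in the submitters' processing notes. The sources used here do not give the transcript release or the mapping options. The authors' expected counts divide a read among the transcripts that could give it, so isoforms, paralogs and overlapping or antisense genes can trade reads. The deposited TPM values and other columns were not tested.

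Estimated counts were rounded and fitted for the 8 libraries without a vector, with edgeR 4.0.16 in R 4.3.3 (TMM, filterByExpr, glmQLFit and glmQLFTest on group means, Benjamini-Hochberg adjustment over all transcripts tested, threshold 0.05). A fit with the NC libraries as 2 groups gave the change against each pair. The standard error of a log2 fold change is its size over the square root of F. The comparison with all 4 NC libraries was also run on simulated counts without a step between the NC pairs. That simulation does not test the rule for holding. DESeq2 1.42.0 and limma 3.58.1 (voom) were alternatives. Standard errors include the spread between libraries, and floors cover counting error only.

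Gene names come from 155 Ensembl IDs written from general knowledge for 140 genes, not from an annotation table, of which 154 are in the files and 144 were tested. As checks, all 13 mitochondrial IDs have exactly the length of their RefSeq gene, and the STAT3 ID was low in every STAT3 siRNA library. Sums per gene had been planned and were not run, since no table used here pairs these IDs with genes. The rule for names was HMGN5, STAT3, members of the lists and at most 2 rising and 2 falling IDs by size. The members and lists were chosen with earlier results of these data known. Which list members are described, and the motifs, were chosen after their values were seen. Results on some list members are not reported here, although counts over the lists include them.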

Additional observations from a re-analysis of the deposited data

Results flagged for a closer look

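MT-ND3 stood at 1246 CPM in NC replicate 2, beside 930 to 974 CPM in the other 3 NC libraries, a gap of 0.86 of the range of the group. It was 1 of 74 named transcripts checked in this way, and chance alone flags about 1 in 20. Outside the comparison, the HMGN5 transcript had a mean of 70.5 CPM in the libraries of STAT3 siRNA with lentiviral HMGN5, beside 0.561 CPM in those of STAT3 siRNA with the empty vector.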

How the results depend on the processing

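With all 4 NC libraries the 2521 calls became 4163 with NC replicates 1 and 2 only, 7656 with replicates 3 and 4 only, 6695 with the mean of the pair means, 1448 with only NC and siHMGN5 in the fit, 9891 with DESeq2 and 1638 with no filter on low counts. Replicate numbers did not pair the samples (correlation of deviations 0.0284 for NC and siHMGN5), and with the replicate block 902 transcripts were called. NC replicates 3 and 4 have no counterpart in siHMGN5 or siSTAT3, so under the block the change rests on NC replicates 1 and 2. RLE size factors (2474), library size only (2456), limma-voom (2965) and leaving out the mitochondrial transcripts (2483) stayed within 1.5 times. A fit restricted to a mean of at least 10 CPM called 3503 of 15753 transcripts. With all transcripts in the fit, 1849 of 15862 at that level were called (11.7%), so calls at that level depended on this setting. Library size only and leaving out the mitochondrial transcripts were added after seeing the data. Leaving out 1 library at a time gave 551 to 1838 calls with all 4, 1459 to 1743 against NC replicates 1 and 2, 3683 to 4480 against replicates 3 and 4, and 536 to 1192 held.

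Of 74 transcripts followed, 42 were called, and none of these changed direction in any setting. Calls kept numbered 19 and 17 without siHMGN5 replicate 1 or 2 and 24 with the replicate block. Direction changed, without a call in the main comparison, for HMGA2 (-0.42 with NC replicates 3 and 4 only, -0.03 to 0.53 leaving out 1 library), CDK6 (-0.04) and MCL1 (-0.02) with replicates 3 and 4 only, VIM (0.03 at 10 CPM or more) and HDAC3 (-0.27 without siHMGN5 replicate 2). With replicates 1 and 2 only it changed for CCND1 (0.15), MET (-0.17), IL6ST (-0.11) and MT-CO2 (-0.14). The replicate block, which rests on the same NC libraries, repeated these changes and is no separate check. Leaving out 1 library gave -0.02 to 0.17 for MET, -0.08 to 0.15 for MT-CO2 and -0.27 to 0.36 for HDAC3. The cause was not tested. A lone siHMGN5 library was assumed to vary like the other groups. With 2 libraries and at least 19114033 reads each, small changes and transcripts near 0.155 CPM could not be resolved.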
